A study of Mus musculus with 27 samples.

Results

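The genes described here are 10 members of the Bcl2 family of survival and death proteins. They were chosen by name, from what each protein is known to do in apoptosis, and each is represented by every array probe set that the platform annotation assigns to that symbol alone. A usable probe set was found for 9 of the 10, and these 9 genes had 30 probe sets, out of 18194 genes with 34958 single-symbol probe sets on the array. No probe set carried Bax as its only symbol, so Bax, one of the effector proteins, was not analysed here.

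Gene expression was measured on 27 Affymetrix 3' arrays of T cells from Balb/c mice, with 3 arrays in each of 9 sorted groups. In the thymus, Foxp3+GFP+ regulatory T cells (Tregs) and Foxp3-GFP- cells were each divided by surface CD24, which falls as CD4 thymocytes mature, into CD24hi, CD24int and CD24lo. A further thymic group held Treg precursors, which the series describes as CD4 single-positive, without Foxp3-GFP and positive for CD25, the IL-2 receptor alpha chain. Peripheral Tregs and naive T cells came from lymph node (LN). The sample labels use the word Treg for the Foxp3- CD24 groups too, whereas the design text calls them conventional T cells. The labels name no treatment, all groups share the background strain, and age, sex and the reporter construct are not given in the sources used here. Whether the 3 replicates of a group are 3 animals is not stated, and the p-values below reflect only how far these arrays differ, which may be technical.

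Proteins of the Bcl2 family decide whether a cell keeps its mitochondrial outer membrane intact. Bcl2, Bcl-xL (gene Bcl2l1) and Mcl1 hold the membrane closed. The BH3-only proteins Bim (Bcl2l11), Noxa (Pmaip1), Puma (Bbc3), Bmf and Bid bind and neutralise those survival proteins or activate the effectors Bak (Bak1) and Bax, which then release cytochrome c. In the thymus Bim and Puma are known for the death of thymocytes with strongly self-reactive receptors, and cytokines such as IL-2 and IL-7 keep T cells alive partly through Bcl2 and Mcl1.

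The sorts could be checked on the arrays. Log2 intensities of Foxp3 were 9.74 to 10.19 in the 4 Foxp3+ groups and 3.31 to 4.37 elsewhere, precursors included, and those of Il2ra were 9.65 to 10.44 in Foxp3+ cells, 7.93 to 8.48 in precursors and 3.85 to 4.90 in the rest. Cd24a, the gene of CD24, stepped down with the gates, from a mean of 10.34 to 7.63 in Foxp3+ and from 10.93 to 6.00 in Foxp3- thymocytes. Markers of NK and NKT cells, 8 genes measured of 9 listed, averaged 8.73 (8.66 to 8.78) in Foxp3- CD24lo cells against 4.25 to 6.36 in the other groups, with Zbtb16 at 10.61 to 11.17. Markers of double-positive thymocytes, 5 of 6 measured, averaged 7.61 (6.85 to 8.04) in precursors against 6.48 or less elsewhere. Foxp3- CD24hi replicate 3 had liver transcripts, with Alb at 11.65 against at most 4.23 on any other array. Replicate arrays correlated at 0.987 to 0.997 over all probe sets.

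Promoter sequences show which of these genes carry, close to a transcript start, the letters read by transcription factors of Treg biology. RefSeq windows of 250 bases before to 50 bases after a start (GRCm38.p6) were taken for 9 of the 10 genes, Bax included, 16 windows in all, and searched on both strands. The forkhead letters TGTTTAC, the family to which Foxp3 and Foxo factors belong, were present in 2 of the 16 windows and in 3.65% of all 32851 windows. The NF-kB letters (GGG, any 2 bases, then TTTCC) were present in 3 of 16 and in 1.63% of all, and the STAT letters TTCNNNGAA in 0 of 16 and in 8.3% of all. The E-box letters CANNTG were present in 11 of 16 and in 72.3% of all, and no motif overlapped another in the stretches below. The 250 bases before a start of Bcl2l11, chr2:128125788-128126037 on the plus strand, are shown whole because Bcl2l11 was highest in the Treg precursors by all 5 of its probe sets. For the other genes 30 bases around each match are shown, and capitals mark the match in the orientation of the gene. A match describes letters and not a bound site, and a missing match says only that these letters are not in that window.
Bcl2l11 upstream, forkhead letters reversed, 227 bases before the start: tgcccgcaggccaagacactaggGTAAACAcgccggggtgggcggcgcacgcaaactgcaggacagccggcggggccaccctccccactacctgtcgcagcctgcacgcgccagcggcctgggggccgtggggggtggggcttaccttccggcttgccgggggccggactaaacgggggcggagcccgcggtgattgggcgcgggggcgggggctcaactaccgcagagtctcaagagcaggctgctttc
Bbc3, forkhead letters as spelled, 167 bases before a start, chr7:16310083-16310112 plus strand: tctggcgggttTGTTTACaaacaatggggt
Bbc3, NF-kB letters reversed, 136 bases before a start, chr7:16309437-16309466 plus strand: ctggctgccgGGAAACCCCCcgcgccgagg
Bcl2l1, NF-kB letters reversed, 218 bases before a start, chr2:152830916-152830945 minus strand: tacgcctctcGGAAAAACCCgggagtggtc
Mcl1, NF-kB letters reversed, 28 bases before a start, chr3:95658683-95658712 plus strand: ccagccctccGGAAACGCCCgcccctttcc

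The 9 measured genes differed widely in how much they moved across the 9 groups. Between the highest and the lowest group mean, Pmaip1 spanned 3.77 log2 units (13.6-fold), Bcl2l11 2.27 (4.81-fold), Bcl2l1 1.94 (3.85-fold), Bid 1.88 (3.68-fold) and Bcl2 1.34 (2.52-fold). By the probe set with the highest mean, the other 4 spanned less than 1 log2 unit, from 0.89 for Bbc3 to 0.45 for Bmf. Further Mcl1 probe sets spanned 1.06 to 1.32, and the Bmf probe set 1454880_s_at spanned 3.35. No single group was highest for all genes. By group means, Bcl2l1 and Bcl2l11 were highest in precursors, Bcl2 in Foxp3+ CD24hi cells and Mcl1 and Pmaip1 in Foxp3+ CD24lo cells. Bid was highest in LN Tregs and Bbc3 in LN naive T cells. Only for Bcl2l1, Bcl2l11 and Bid did the arrays of the highest group not overlap those of the next. Foxp3- CD24lo cells had the lowest means for Bcl2, Bcl2l1, Mcl1 and Bcl2l11 and the highest for Bak1. Their Bcl2l1 arrays overlapped those of LN naive T cells, and their Bak1 arrays those of precursors. Levels below are log2 intensities of the probe set with the highest mean for each gene, a difference is a log2 difference of group means ± its SE from one limma fit over all 27 arrays (n = 3 per group), and "called" means a Benjamini-Hochberg adjusted p below 0.05 over all 18194 genes. These are bulk samples of sorted cells, in which fewer cells of a type and less RNA per cell cannot be told apart.

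**Figure D1:**
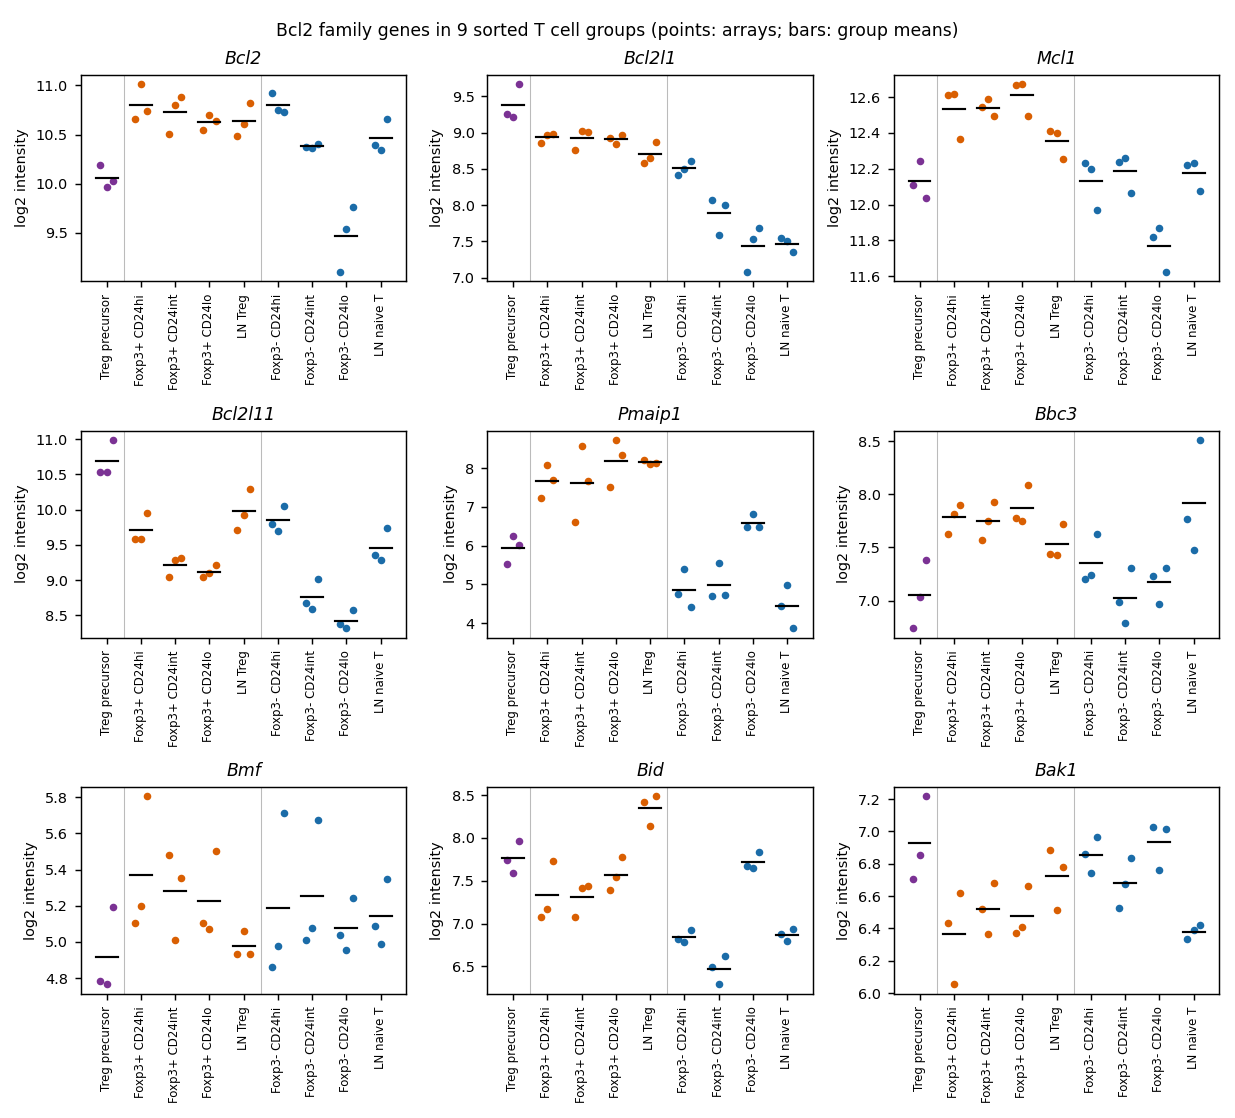
Log2 intensity of each of the 9 measured Bcl2 family genes (vertical axes, one panel per gene) in the 9 sorted groups (horizontal axes). Each point is an array, 3 per group, and each bar marks the group mean. Bcl2l1 and Bcl2l11 are highest in the precursors, Pmaip1 is high in the Foxp3+ groups and low in Foxp3- CD24hi, Foxp3- CD24int and LN naive T cells, and Bcl2 is lowest in Foxp3- CD24lo cells.

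Bcl2, the founding survival protein of the family, showed no called change between the CD24 gates of thymic Tregs. It was lower in Foxp3- CD24lo than in Foxp3- CD24hi and CD24int thymocytes. Its log2 intensities on the 3 arrays were 10.66, 11.02 and 10.74 in Foxp3+ CD24hi, 10.51, 10.80 and 10.89 in Foxp3+ CD24int, 10.54, 10.70 and 10.64 in Foxp3+ CD24lo and 10.49, 10.61 and 10.83 in LN Tregs. They were 10.93, 10.75 and 10.73 in Foxp3- CD24hi, 10.37, 10.37 and 10.40 in Foxp3- CD24int, 9.10, 9.54 and 9.77 in Foxp3- CD24lo and 10.39, 10.35 and 10.66 in LN naive T cells. Precursors gave 10.19, 9.97 and 10.03. The Foxp3+ groups overlapped each other, the 3 Foxp3- thymic groups did not, and precursors lay below every group except Foxp3- CD24lo.

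Foxp3+ and Foxp3- cells did not differ in a called way in Bcl2 at CD24hi (0.01 ± 0.14, adjusted p = 0.99) or at CD24int (0.35 ± 0.14, adjusted p = 0.112). At CD24lo Bcl2 was 2.23-fold higher in Foxp3+ cells (1.16 ± 0.14, adjusted p = 7.28e-07). The change of this difference from CD24int to CD24lo was itself called (0.81 ± 0.20, adjusted p = 0.0155), and it followed the Foxp3- side, where Bcl2 fell by 0.91 ± 0.14 (adjusted p = 4.41e-05). Without Foxp3+ CD24int replicate 1 the change was 0.70 (adjusted p = 0.0547), and without Foxp3- CD24lo replicate 1 it was 0.63 (adjusted p = 0.0633), while the CD24int difference became called without that Foxp3+ CD24int array (0.46, adjusted p = 0.0469). The NK and NKT markers moved with this drop: 8 of 8 were called higher in Foxp3- CD24lo than in Foxp3- CD24int cells, and their part in it was not tested. LN naive T cells, with these markers at 6.36 (6.21 to 6.56), had 1.99-fold more Bcl2 than Foxp3- CD24lo cells (1.00 ± 0.14, adjusted p = 1.25e-05) and differed from Foxp3- CD24int cells by 0.08 ± 0.14 (adjusted p = 0.832).

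At the start of the Treg path Bcl2 was 1.67-fold lower in precursors than in Foxp3- CD24hi cells (-0.74 ± 0.14, adjusted p = 0.00083). It was higher again by the same amount in Foxp3+ CD24hi cells (0.74 ± 0.14, adjusted p = 0.000558). The difference between Foxp3- CD24int and Foxp3- CD24hi (-0.42 ± 0.14) had an adjusted p of 0.104, and of 0.0421 with the replicate block. With each of the 34958 probe sets fitted on its own, all 5 Bcl2 probe sets were called higher in Foxp3+ cells at CD24lo (0.96 to 1.36) and lower in Foxp3- CD24lo than in Foxp3- CD24int (-1.44 to -0.91). Of these 5, 3 were called lower in precursors than in Foxp3- CD24hi (-0.83 to -0.17 over all 5) and 2 were called higher in Foxp3+ CD24hi than in precursors (0.40 to 0.91). Between Foxp3+ and Foxp3- cells the 5 ran from -0.44 to 0.74 at CD24hi, where 0 were called. At CD24int they ran from 0.10 to 0.49, and 1 of 5 was called higher. In LN naive T cells 3 of 5 were called higher than in Foxp3- CD24lo cells (0.38 to 1.02). Against Foxp3- CD24int cells the 5 ran from -1.05 to 0.08, with 0 called and the representative highest.

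Bcl2l1, which encodes Bcl-xL, was highest in the Treg precursors. These gave log2 intensities of 9.25, 9.21 and 9.67, above every array of the other groups. The values were 8.85, 8.96 and 8.98 in Foxp3+ CD24hi, 8.77, 9.02 and 9.01 in Foxp3+ CD24int, 8.93, 8.85 and 8.97 in Foxp3+ CD24lo and 8.58, 8.65 and 8.87 in LN Tregs. In Foxp3- cells they were 8.42, 8.49 and 8.61 at CD24hi, 8.08, 7.59 and 8.00 at CD24int, 7.08, 7.54 and 7.68 at CD24lo and 7.55, 7.51 and 7.35 in LN naive T cells. The 3 thymic Foxp3+ groups thus lay on top of each other, and every thymic Foxp3+ array lay above every Foxp3- array.

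The Foxp3+ excess of Bcl2l1 was 1.34-fold at CD24hi (0.43 ± 0.15, adjusted p = 0.0466), 2.06-fold at CD24int (1.04 ± 0.15, adjusted p = 9.25e-06) and 2.8-fold at CD24lo (1.48 ± 0.15, adjusted p = 2.2e-08). The increase from one gate to the next was not called (0.62 ± 0.21, adjusted p = 0.167, then 0.44 ± 0.21, adjusted p = 0.34). In lymph node the excess was 2.35-fold (1.23 ± 0.15, adjusted p = 7.46e-07). The CD24hi call is the weakest of these: it was lost with any 1 of the 6 arrays left out (adjusted p 0.0578 to 0.139). The mean of all 4 probe sets gave 0.13 there (adjusted p = 0.541), and the other 3 probe sets averaged 4.79, 4.79 and 3.47, at or below the median of 4.95 for all probe sets on the array.

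On the Treg path Bcl2l1 was 1.83-fold higher in precursors than in Foxp3- CD24hi cells (0.87 ± 0.15, adjusted p = 0.000189). It was 1.36-fold lower in Foxp3+ CD24hi cells than in precursors (-0.44 ± 0.15, adjusted p = 0.0407). That second call was lost without Foxp3+ CD24hi replicate 1 (adjusted p = 0.135), replicate 2 (0.0866) or replicate 3 (0.0599), or without precursor replicate 3 (-0.30, adjusted p = 0.243). With every probe set fitted, limma called 0 of 4 for it (-0.81 to -0.22), the representative at an adjusted p of 0.0524. For the precursor excess over Foxp3- CD24hi cells 1 of 4 was called (0.14 to 0.87). In Foxp3- cells Bcl2l1 fell by 0.62 ± 0.15 from CD24hi to CD24int (adjusted p = 0.0111) and by 0.46 ± 0.15 from CD24int to CD24lo (adjusted p = 0.0427). The first fall lost its call without Foxp3- CD24int replicate 2 (-0.47, adjusted p = 0.111) or without Foxp3- CD24hi replicate 3, the array with liver transcripts (-0.57, adjusted p = 0.0616). The second lost it without Foxp3- CD24int replicate 1 (adjusted p = 0.201) or 3 (0.151), or without Foxp3- CD24lo replicate 1 (-0.28, adjusted p = 0.286) or 2 (0.0552), and the arrays of these 2 groups overlapped. With the mean of the probe sets both falls were smaller and not called (-0.18, adjusted p = 0.508, and -0.23, adjusted p = 0.26).

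Mcl1 is a short-lived survival protein that T cells need at every stage. By the probe sets with the highest means it spanned the least of the survival genes, with SDs of 0.05 to 0.15 within groups. Its log2 intensities ran from 12.37 to 12.67 in the thymic Foxp3+ groups, from 12.25 to 12.41 in LN Tregs, from 12.04 to 12.25 in precursors, from 11.97 to 12.26 in Foxp3- CD24hi and CD24int cells, from 11.62 to 11.87 in Foxp3- CD24lo cells and from 12.07 to 12.23 in LN naive T cells. Every thymic Foxp3+ array lay above every Foxp3- array. Mcl1 was 1.32-fold higher in Foxp3+ cells at CD24hi (0.40 ± 0.10, adjusted p = 0.00788), 1.28-fold at CD24int (0.35 ± 0.10, adjusted p = 0.0208) and 1.79-fold at CD24lo (0.84 ± 0.10, adjusted p = 8.68e-07). The LN difference was 0.18 ± 0.10 (adjusted p = 0.354).

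Between precursors and Foxp3- CD24hi cells the Mcl1 means were 12.13 and 12.13 (adjusted p = 0.996), and Mcl1 was 1.32-fold higher in Foxp3+ CD24hi cells than in precursors (0.40 ± 0.10, adjusted p = 0.00882). It fell by 0.42 ± 0.10 from Foxp3- CD24int to CD24lo (adjusted p = 0.00769) and was 1.32-fold higher in LN naive T than in Foxp3- CD24lo cells (0.40 ± 0.10, adjusted p = 0.00818). The rise of the Foxp3 difference from CD24int to CD24lo (0.49 ± 0.15) missed the threshold (adjusted p = 0.061) and passed it with the mean of the 6 probe sets (adjusted p = 0.00476), with log2(intensity + 16) (0.0223), without dim genes (0.0354), without Foxp3+ CD24lo replicate 3 (0.54, adjusted p = 0.0495) or without Foxp3- CD24int replicate 3 (0.55, adjusted p = 0.0475). The 5 other probe sets correlated with the representative at 0.971 to 0.991 over the 9 group means, and 6 of 6 were called higher in Foxp3+ cells at CD24int and at CD24lo. The 6 gave 0.35 to 0.63 at CD24int and 0.84 to 1.31 at CD24lo, with the representative lowest in both.

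Several Mcl1 calls depended on single arrays. At CD24hi the call was lost without Foxp3- CD24hi replicate 3 (0.31, adjusted p = 0.0686), and at CD24int without Foxp3+ CD24int replicate 2 (adjusted p = 0.075) or Foxp3- CD24int replicate 3 (0.29, adjusted p = 0.114). Against precursors it was lost without Foxp3+ CD24hi replicate 2 (0.36, adjusted p = 0.0524). The 2 calls that involve Foxp3- CD24lo cells, the fall from CD24int and the excess of LN naive T cells, were lost without Foxp3- CD24lo replicate 3 (adjusted p 0.0658 and 0.0664). LN Tregs were lower than Foxp3+ CD24lo cells by 0.26 on the log2 scale (adjusted p = 0.199, or 0.0133 with the replicate block).

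Among the BH3-only genes, Bcl2l11 separated the Treg precursors from all other cells. This gene encodes Bim, the main BH3-only protein of thymocyte negative selection. Its log2 intensities were 10.53, 10.54 and 10.99 in precursors, above the highest array of any other group, 10.29. They were 9.58, 9.58 and 9.95 in Foxp3+ CD24hi, 9.04, 9.28 and 9.32 in Foxp3+ CD24int, 9.05, 9.10 and 9.21 in Foxp3+ CD24lo and 9.71, 9.93 and 10.29 in LN Tregs. In Foxp3- cells they were 9.80, 9.70 and 10.05 at CD24hi, 8.67, 8.59 and 9.01 at CD24int, 8.38, 8.32 and 8.57 at CD24lo and 9.36, 9.28 and 9.74 in LN naive T cells. Levels were thus lower at CD24lo than at CD24hi on both sides of the Foxp3 divide and high again in lymph node, and replicate 3 was the highest array in each of the 9 groups.

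Precursors had 1.78-fold more Bcl2l11 than Foxp3- CD24hi cells (0.83 ± 0.16, adjusted p = 0.000926), and Foxp3+ CD24hi cells had 1.98-fold less than precursors (-0.98 ± 0.16, adjusted p = 0.000111). Both calls held with each single array left out. Of the 5 probe sets, all peaked in precursors, 4 were called higher there than in Foxp3- CD24hi cells (0.83 to 1.07 over all 5) and 5 were called lower in Foxp3+ CD24hi cells (-1.66 to -0.96). Double-positive thymocyte markers moved the same way, with 4 of 5 called higher in precursors than in Foxp3- CD24hi cells and 5 of 5 called lower in Foxp3+ CD24hi cells than in precursors. NK and NKT markers did so too, at a mean of 6.07 (5.47 to 6.54) in precursors, 4.25 (3.97 to 4.41) in Foxp3- CD24hi and 4.69 (4.58 to 4.82) in Foxp3+ CD24hi cells. The part of either marker group in the Bcl2l11 difference was not tested.

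In Foxp3- cells Bcl2l11 fell by 1.09 ± 0.16 from CD24hi to CD24int (2.13-fold lower, adjusted p = 8.22e-05), and 5 of 5 probe sets were called lower (-1.41 to -0.91). The corresponding difference in Foxp3+ cells was -0.49 ± 0.16 (adjusted p = 0.312, or 0.00572 with the replicate block), and the difference between these steps was not called (0.60 ± 0.23, adjusted p = 0.24). From CD24int to CD24lo the Foxp3- difference was -0.34 ± 0.16 (adjusted p = 0.232, or 0.00949 with the block). In lymph node Bcl2l11 was 1.81-fold higher in Tregs than in Foxp3+ CD24lo thymocytes (0.85 ± 0.16, adjusted p = 0.00116), 2.06-fold higher in naive T than in Foxp3- CD24lo cells (1.04 ± 0.16, adjusted p = 4.12e-05) and 1.63-fold higher in naive T than in Foxp3- CD24int cells (0.70 ± 0.16, adjusted p = 0.00564). The last of these calls was lost without LN naive T replicate 3 (0.56, adjusted p = 0.0535). Of the 5 probe sets, 2 were called higher in LN Tregs than in Foxp3+ CD24lo cells (0.56 to 0.85). In LN naive T cells 4 of 5 were called higher against Foxp3- CD24lo (0.16 to 1.17) and 3 of 5 against Foxp3- CD24int (0.18 to 0.87).

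Between Foxp3+ and Foxp3- cells Bcl2l11 differed by -0.15 ± 0.16 at CD24hi (adjusted p = 0.645), by 0.45 ± 0.16 at CD24int (adjusted p = 0.0635) and by 0.70 ± 0.16 at CD24lo, where Foxp3+ cells had 1.62-fold more (adjusted p = 0.00221). Neither change from one gate to the next was called (adjusted p = 0.24 and 0.769). At CD24int the difference was called without Foxp3- CD24int replicate 3 (0.58, adjusted p = 0.0293) and without dim genes (adjusted p = 0.0448). The LN excess of 1.43-fold in Tregs (0.51 ± 0.16, adjusted p = 0.0377) was lost without naive T replicate 1 (0.46, adjusted p = 0.137) or 2 (0.43, adjusted p = 0.171), or without Treg replicate 2 (adjusted p = 0.0705) or 3 (0.36, adjusted p = 0.24). The mean of all 5 probe sets gave 0.43 (adjusted p = 0.126), limma called 0 of 5 when every probe set was fitted (the representative at an adjusted p of 0.0502), and the LN arrays overlapped. At CD24lo 2 of 5 probe sets were called (-0.03 to 0.85).

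Pmaip1 had the widest range of the family. It encodes Noxa, which binds mainly Mcl1, and it had 1 probe set. Log2 intensities were 7.22, 8.08 and 7.70 in Foxp3+ CD24hi, 6.62, 8.57 and 7.68 in Foxp3+ CD24int, 7.51, 8.73 and 8.35 in Foxp3+ CD24lo and 8.21, 8.12 and 8.14 in LN Tregs. They were 4.74, 5.39 and 4.42 in Foxp3- CD24hi, 4.69, 5.56 and 4.73 in Foxp3- CD24int, 6.48, 6.81 and 6.49 in Foxp3- CD24lo and 4.44, 4.98 and 3.87 in LN naive T cells. Precursors, at 5.52, 6.25 and 6.03, lay between the Foxp3- CD24hi and the Foxp3+ CD24hi arrays without touching either. Foxp3- CD24lo cells stood apart from the other Foxp3- groups and reached into the Foxp3+ CD24int range.

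Foxp3+ cells had more Pmaip1 than their Foxp3- counterparts in each tested pair, 7.03-fold at CD24hi (2.81 ± 0.38, adjusted p = 4.08e-06), 6.2-fold at CD24int (2.63 ± 0.38, adjusted p = 1.17e-05), 3.04-fold at CD24lo (1.60 ± 0.38, adjusted p = 0.00245) and 13.2-fold in lymph node (3.73 ± 0.38, adjusted p = 5.03e-08). The smaller value at CD24lo was not called as a change from CD24int (-1.03 ± 0.54, adjusted p = 0.417). The LN naive T mean of 4.43 and the Foxp3- CD24hi mean of 4.85 lie below the median of 4.95 for all probe sets, and the Foxp3- CD24int mean of 4.99 just above it, so the sizes of these 3 folds depend on a dim signal. Precursors had 2.12-fold more than Foxp3- CD24hi cells (1.08 ± 0.38, adjusted p = 0.0814), which was called with the replicate block (adjusted p = 0.00479) and without Foxp3- CD24hi replicate 2 (1.35, adjusted p = 0.0454). Foxp3+ CD24hi cells had a further 3.32-fold more than precursors (1.73 ± 0.38, adjusted p = 0.00198).

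Within Foxp3- cells Pmaip1 was 3.03-fold higher at CD24lo than at CD24int (1.60 ± 0.38, adjusted p = 0.00438) and 4.48-fold lower in LN naive T than in Foxp3- CD24lo cells (-2.16 ± 0.38, adjusted p = 0.000162), alongside the NK and NKT markers (5.55, 8.73 and 6.36 in the 3 groups), whose part was not tested. LN naive T and Foxp3- CD24int cells differed by -0.56 ± 0.38 (adjusted p = 0.475), and LN Tregs and Foxp3+ CD24lo cells by -0.04 ± 0.38 (adjusted p = 0.989). Replicate 2 lay above the group mean in 8 of 9 groups, by 0.45 log2 units on average, and replicate 1 did so in 2 of 9.

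Bid links death receptors to mitochondria once caspase 8 cleaves it. Its log2 intensities were 8.41, 8.14 and 8.48 in LN Tregs, above all other arrays. They were 7.74, 7.59 and 7.96 in precursors, 7.08, 7.18 and 7.73 in Foxp3+ CD24hi, 7.07, 7.41 and 7.44 in Foxp3+ CD24int and 7.39, 7.55 and 7.77 in Foxp3+ CD24lo. In Foxp3- cells they were 6.82, 6.79 and 6.93 at CD24hi, 6.49, 6.29 and 6.62 at CD24int, 7.67, 7.65 and 7.83 at CD24lo and 6.87, 6.80 and 6.94 in LN naive T cells. Foxp3- CD24lo cells thus reached the level of Foxp3+ CD24lo cells, while the other Foxp3- groups stayed below every Foxp3+ array.

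Bid was higher in Foxp3+ cells at CD24hi (0.48 ± 0.15, 1.4-fold, adjusted p = 0.0261) and at CD24int (0.84 ± 0.15, 1.79-fold, adjusted p = 0.000202) but not at CD24lo (-0.15 ± 0.15, adjusted p = 0.619). The change from CD24int to CD24lo was called (-0.99 ± 0.21, adjusted p = 0.00455). It followed the Foxp3- side, where Bid was 2.38-fold higher at CD24lo than at CD24int (1.25 ± 0.15, adjusted p = 1.1e-06), again with the NK and NKT markers. LN naive T cells had 1.8-fold less than Foxp3- CD24lo cells (-0.85 ± 0.15, adjusted p = 0.000203). The probe sets disagreed on these Foxp3- CD24lo results, since 1 of 3 was called for the change of the Foxp3 difference (-0.99 to -0.07) and 1 of 3 for the step from CD24int to CD24lo (0.35 to 1.25), and the mean of the 3 gave a change of -0.53 (adjusted p = 0.192). For LN naive T against Foxp3- CD24lo cells 1 of 3 was called lower (-0.85 to -0.08). The Foxp3+ excess was called for 2 of 3 at CD24hi (0.40 to 0.51) and for 1 of 3 at CD24int (0.20 to 0.84). At CD24hi the call was lost without Foxp3- CD24hi replicate 1 (adjusted p = 0.0684) or 2 (0.0812) or without Foxp3+ CD24hi replicate 3 (0.28, adjusted p = 0.218).

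In lymph node Bid was 2.78-fold higher in Tregs than in naive T cells (1.48 ± 0.15, adjusted p = 5.43e-08), with 3 of 3 probe sets called (0.92 to 1.48), and 1.71-fold higher in LN Tregs than in Foxp3+ CD24lo thymocytes (0.78 ± 0.15, adjusted p = 0.00138). Precursors had 1.89-fold more Bid than Foxp3- CD24hi cells (0.92 ± 0.15, adjusted p = 0.000128). Foxp3+ CD24hi cells differed from precursors by -0.43 ± 0.15 (adjusted p = 0.051), which passed with the replicate block (0.00437), without dim genes (0.0351), with log2(intensity + 16) (0.046), without precursor replicate 2 (-0.52, adjusted p = 0.0397) or without Foxp3+ CD24hi replicate 3 (-0.64, adjusted p = 0.00285). The Foxp3- step from CD24hi to CD24int was -0.38 ± 0.15 (adjusted p = 0.192, or 0.027 with the block).

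Bbc3 encodes Puma, a BH3-only protein induced by p53 and by cytokine loss, and had 1 probe set. Its log2 intensities ran from 7.57 to 8.09 in thymic Foxp3+ cells, from 7.43 to 7.72 in LN Tregs, from 6.74 to 7.38 in precursors, from 6.79 to 7.62 in Foxp3- thymocytes and from 7.47 to 8.51 in LN naive T cells. In the order of the 9 group means, every group overlapped the next. Bbc3 was higher in Foxp3+ cells at CD24int (0.72 ± 0.20, 1.64-fold, adjusted p = 0.0156) and at CD24lo (0.70 ± 0.20, 1.63-fold, adjusted p = 0.0128). At CD24hi the difference was 0.43 ± 0.20 (adjusted p = 0.17, or 0.0159 with the replicate block). In lymph node it ran the other way, at -0.38 ± 0.20 (adjusted p = 0.287, or 0.0406 with the block). The calls were lost at CD24int without Foxp3- CD24int replicate 2 (adjusted p = 0.0936) or Foxp3+ CD24int replicate 3 (0.0729), and at CD24lo without Foxp3- CD24lo replicate 2 (0.0728) or Foxp3+ CD24lo replicate 3 (0.0756).

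Foxp3+ CD24hi cells had 1.66-fold more Bbc3 than precursors (0.73 ± 0.20, adjusted p = 0.0135), a call lost without precursor replicate 1 (0.57, adjusted p = 0.0873). LN naive T cells had 1.67-fold more than Foxp3- CD24lo cells (0.74 ± 0.20, adjusted p = 0.0125) and 1.85-fold more than Foxp3- CD24int cells (0.89 ± 0.20, adjusted p = 0.00504). Both rest largely on LN naive T replicate 3, at 8.51: without it they were 0.45 (adjusted p = 0.141) and 0.59 (adjusted p = 0.0592). That against Foxp3- CD24lo cells was also lost without Foxp3- CD24lo replicate 2 (adjusted p = 0.0693). Cell cycle markers, 7 of 8 measured, were all called lower in LN naive T cells than in either Foxp3- thymic group.

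Bmf, a BH3-only protein released from the cytoskeleton, gave opposite pictures by probe set. The representative, 1458325_x_at, ran from 4.77 to 5.81 over all 27 arrays and was called in none of the 15 comparisons (limma; in 1 at an unadjusted p below 0.05). The probe set 1454880_s_at gave 6.74, 6.43 and 7.40 in precursors, 5.00, 4.50 and 5.01 in Foxp3- CD24hi, 4.13, 4.89 and 4.88 in LN Tregs and 3.28 to 4.67 in all other groups. The precursor arrays lay above every other array there, the lowest at 6.43 against at most 5.01 elsewhere. The highest and lowest group means of 1454880_s_at were 3.35 apart, and the 2 probe sets correlated at -0.664 over the 9 group means. Fitted among all probe sets, 1454880_s_at was 2.02 ± 0.26 higher in precursors than in Foxp3- CD24hi cells (adjusted p = 1.06e-05) and lower in Foxp3+ CD24hi cells than in precursors (-2.87 ± 0.26, adjusted p = 5.53e-08).

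In the manufacturer's naming, an _s_at probe set can match several transcripts and an _x_at probe set holds probes that may cross-hybridise, so the transcript behind each Bmf signal is uncertain. The 1454880_s_at signal was also called lower in Foxp3+ than in Foxp3- cells at CD24hi (-0.86 ± 0.26, adjusted p = 0.0274), lower in Foxp3- CD24int than in Foxp3- CD24hi (-0.93 ± 0.26, adjusted p = 0.0486) and higher in LN Tregs than in Foxp3+ CD24lo cells (1.09 ± 0.26, adjusted p = 0.0138). The third probe set, 1422995_at, spanned 0.32. For the representative, Foxp3+ CD24hi cells against precursors gave 0.45 ± 0.21 (adjusted p = 0.172, or 0.0215 with the replicate block).

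Bak1 encodes the effector Bak and was called lower in Foxp3+ than in Foxp3- cells at CD24hi and CD24lo. By the representative probe sets, none of the other 8 genes was called lower in any of the 4 Foxp3 comparisons. Of the Bmf probe sets, 1 of 3 was called lower at CD24hi, as given above. Log2 intensities of Bak1 ran from 6.05 to 6.68 in thymic Foxp3+ cells, 6.53 to 7.03 in Foxp3- thymocytes, 6.71 to 7.22 in precursors, 6.52 to 6.89 in LN Tregs and 6.33 to 6.42 in LN naive T cells. In the order of the 9 group means, every group overlapped the next. Bak1 was 1.4-fold lower in Foxp3+ cells at CD24hi (-0.49 ± 0.15, adjusted p = 0.0203) and 1.37-fold lower at CD24lo (-0.45 ± 0.15, adjusted p = 0.0266), with -0.16 ± 0.15 at CD24int (adjusted p = 0.591). In lymph node it was 0.35 ± 0.15 higher in Tregs (adjusted p = 0.15, or 0.0268 with the replicate block). It was 1.47-fold lower in Foxp3+ CD24hi cells than in precursors (-0.56 ± 0.15, adjusted p = 0.00876) and 1.47-fold lower in LN naive T than in Foxp3- CD24lo cells (-0.55 ± 0.15, adjusted p = 0.00969).

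The Bak1 calls were fragile at CD24hi and CD24lo. At CD24hi the call was lost without Foxp3+ CD24hi replicate 2 (-0.33, adjusted p = 0.173) or without Foxp3- CD24hi replicate 1 (adjusted p = 0.0504) or 3 (-0.43, adjusted p = 0.0873). At CD24lo it was lost without Foxp3+ CD24lo replicate 1 (adjusted p = 0.107) or 2 (0.0916) or Foxp3- CD24lo replicate 1 (0.0949) or 3 (0.098). Against precursors it was lost without Foxp3+ CD24hi replicate 2 (-0.40, adjusted p = 0.093) or precursor replicate 3 (-0.41, adjusted p = 0.0801). With every probe set fitted alone, both Bak1 probe sets were called lower at CD24lo (-0.56 and -0.45). Only 1 of 2 was called lower at CD24hi (-0.49 and -0.35) and in Foxp3+ CD24hi cells against precursors (-0.56 and -0.18). The same held for LN naive T against Foxp3- CD24lo cells, with 1 of 2 called lower (-0.55 and -0.21).

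**Figure D2:**
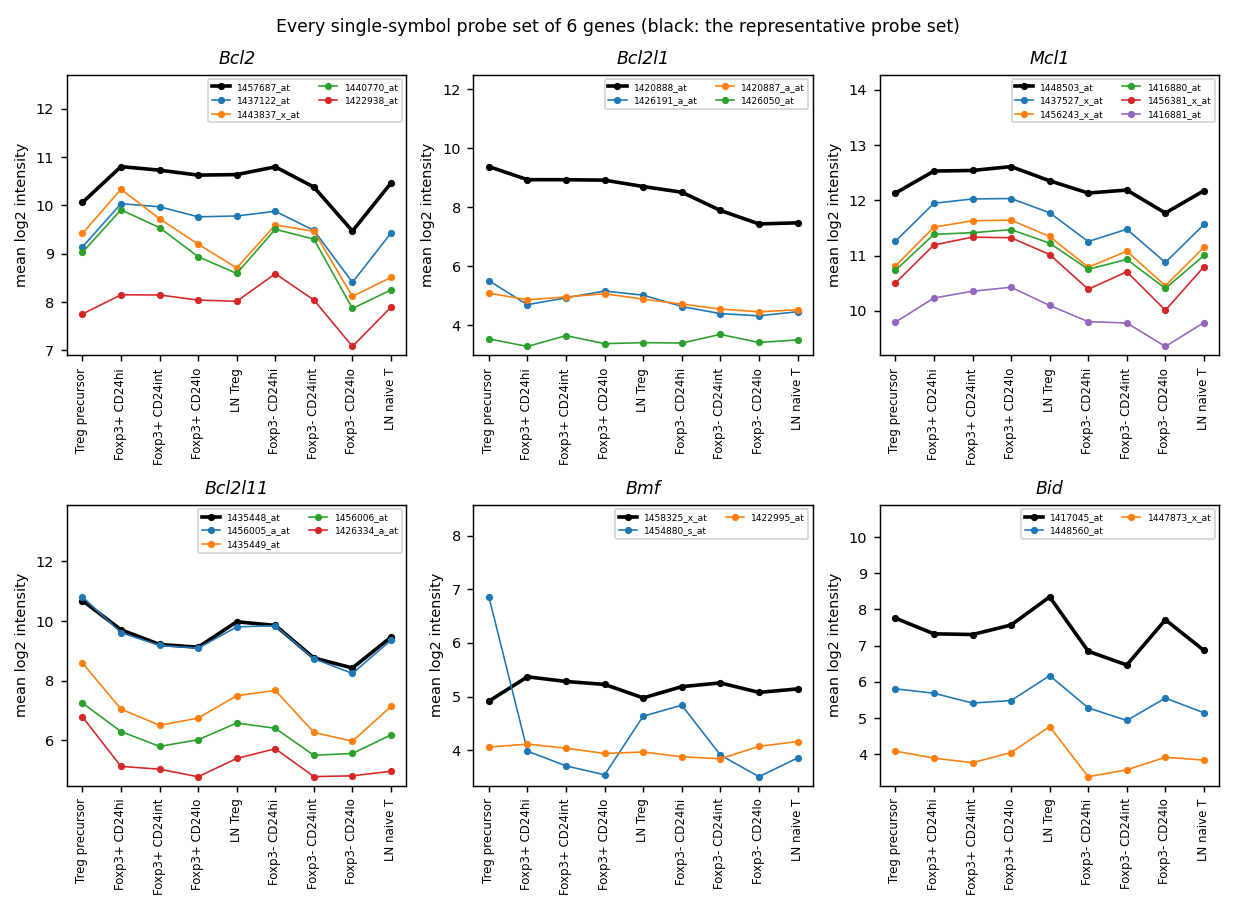
Mean log2 intensity (vertical axes) of every single-symbol probe set of Bcl2, Bcl2l1, Mcl1, Bcl2l11, Bmf and Bid in the 9 groups (horizontal axes); each line is 1 probe set and the black line is the representative. The 6 Mcl1 lines correlate with the black line at 0.971 or more and the 5 Bcl2l11 lines all peak in precursors, whereas the Bmf line of 1454880_s_at peaks at a mean of 6.86 in precursors while the black line is at 4.91 there.

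The comparisons of Foxp3+ with Foxp3- cells called survival and death genes side by side. At CD24hi 5 of the 9 genes were called (18.0% of all genes were), with Bcl2l1, Mcl1, Pmaip1 and Bid higher (8.38% of all genes) and Bak1 lower (9.65%). At CD24int 5 of 9 were called, all higher (15.3% of all genes in either direction, 8.66% higher): Bcl2l1, Mcl1, Pmaip1, Bbc3 and Bid. At CD24lo 7 of 9 were called (21.0%), with Bcl2, Bcl2l1, Mcl1, Bcl2l11, Pmaip1 and Bbc3 higher (9.85%) and Bak1 lower (11.2%). In lymph node 4 of 9 were called (12.4%), all higher in Tregs (8.01%): Bcl2l1, Bcl2l11, Pmaip1 and Bid. The median difference of the 9 genes was 0.40, 0.45, 0.70 and 0.35 in these 4 comparisons, against 0.00450, -0.0119, -0.0124 and -0.0421 for all genes.

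Other marker genes moved with these comparisons. At CD24hi 3 of 5 double-positive thymocyte markers were called lower in Foxp3+ cells (5.40, 5.22 to 5.54, against 6.48, 6.40 to 6.55), and CD4 T cell markers were called lower for 3 of 4 genes at CD24hi (10.68 against 11.30) and 3 of 4 at CD24int (10.68 against 11.11). At CD24lo 8 of 8 NK and NKT markers were called lower in Foxp3+ cells (4.50 against 8.73 on average), and at CD24int 5 of 8 were lower and 1 higher (4.62, 4.45 to 4.70, against 5.55, 4.68 to 6.03). Cell cycle markers were called lower in Foxp3+ cells for 6 of 7 genes at CD24int and 5 of 7 at CD24lo, and higher in LN Tregs for 3 of 7. Markers of antigen-presenting cells were called lower in Foxp3+ cells for 5 of 8 genes at CD24int and 4 of 8 at CD24lo. The part of these markers in the family's differences was not tested. Without Foxp3- CD24hi replicate 3, the array with liver transcripts, Mcl1, Bak1 and Bcl2l1 lost their calls at CD24hi. Bak1 and Bcl2l1 also lost them without other single arrays, as given above.

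**Figure D3:**
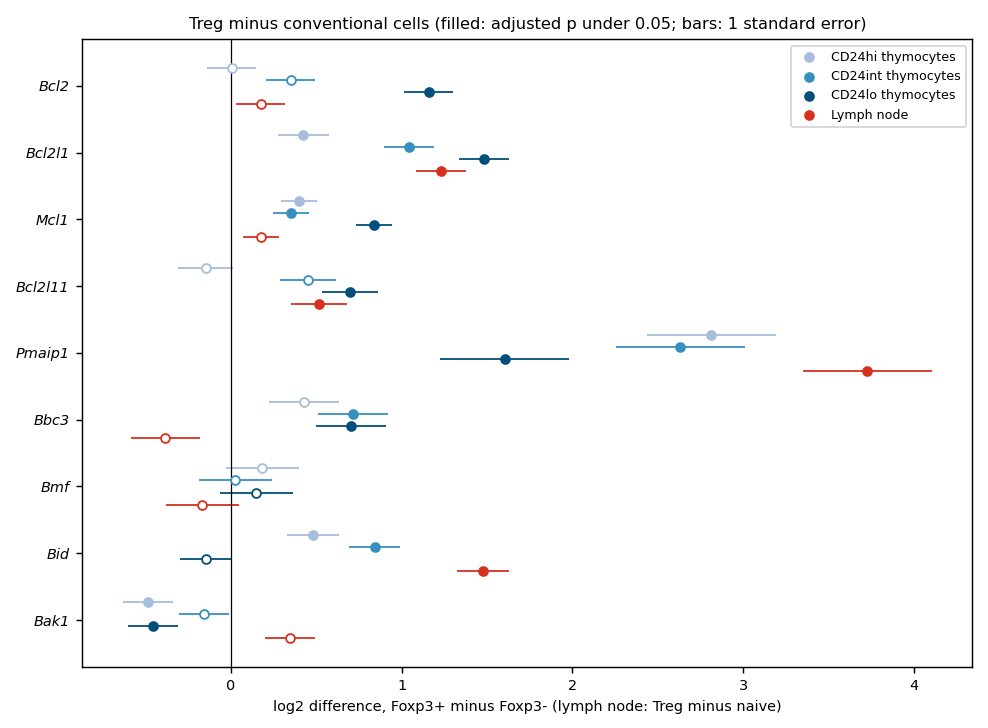
Log2 difference of Foxp3+ minus Foxp3- cells (horizontal axes) for the 9 genes in thymus at CD24hi, CD24int and CD24lo and in lymph node. Points are differences of 3 against 3 arrays, bars are 1 SE, and filled points have an adjusted p below 0.05. Pmaip1 has the highest value in each comparison, and Bcl2l1 reaches 1.48 at CD24lo.

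The passage from Foxp3- CD24hi cells to precursors and on to Foxp3+ CD24hi cells split the survival genes. Against Foxp3- CD24hi cells, 4 of 9 genes were called in precursors (9.11% of all genes), with Bcl2l1, Bcl2l11 and Bid higher (5.08%) and Bcl2 lower (4.03%). Between Foxp3+ CD24hi cells and precursors 7 of 9 were called (16.0%), with Bcl2, Mcl1, Pmaip1 and Bbc3 higher (6.77%) and Bcl2l1, Bcl2l11 and Bak1 lower (9.27%). The precursors therefore combined the highest Bcl2l1 and Bcl2l11 of the 9 groups with a Bcl2 mean that was the second lowest. Both comparisons use the same precursor arrays, so their opposite signs for Bcl2, Bcl2l1 and Bcl2l11 are not independent. Double-positive markers (4 of 5 higher, then 5 of 5 lower) and NK and NKT markers (6 of 8 higher, then 5 of 8 lower) moved with both comparisons, and their part in the Bcl2, Bcl2l1, Bid and other calls was not tested. The medians of the 9 genes were 0.07 and 0.40, against -0.00825 and 0.0191 for all genes.

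**Figure D4:**
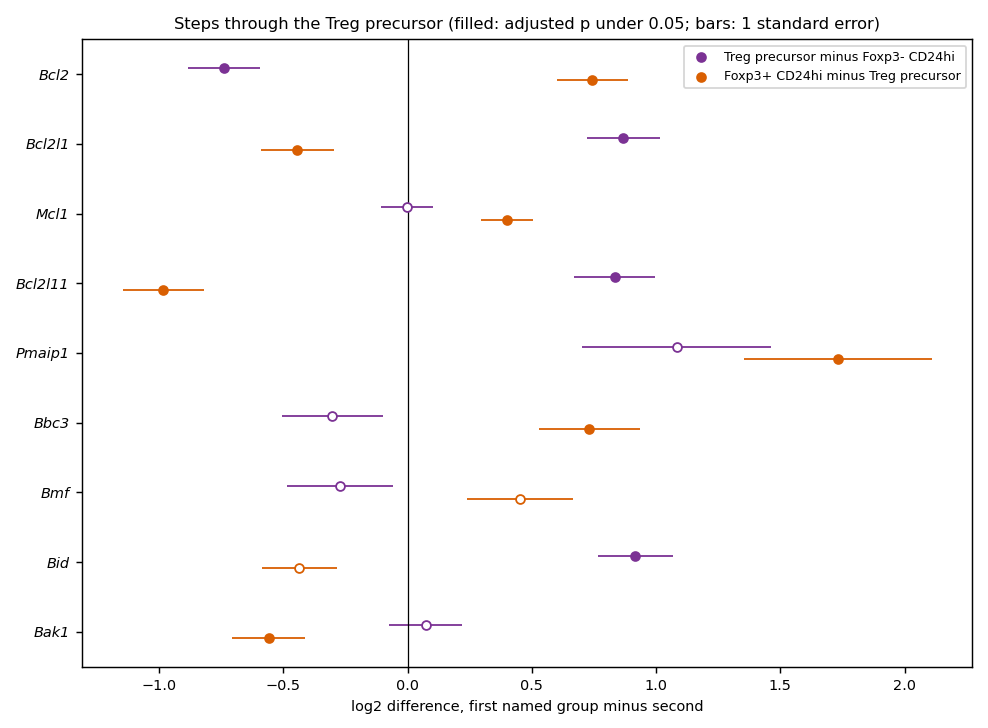
Log2 differences (horizontal axes) of precursors minus Foxp3- CD24hi cells and of Foxp3+ CD24hi cells minus precursors for the 9 genes. Points are differences of 3 against 3 arrays, bars are 1 SE, and filled points have an adjusted p below 0.05. Bcl2 is at -0.74 and then 0.74, whereas Bcl2l11 is at 0.83 and then -0.98.

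Between the CD24 gates of the thymus, called changes of the family lay on the Foxp3- side. NK and NKT markers were called higher there too, for 4 of 8 genes from CD24hi to CD24int and 8 of 8 from CD24int to CD24lo. Their part in the family's changes was not tested. From Foxp3- CD24hi to CD24int 2 of 9 genes were called, both lower (5.01% of all genes, 2.75% lower): Bcl2l1 and Bcl2l11. From Foxp3- CD24int to CD24lo 5 of 9 were called (12.0%), with Bcl2, Bcl2l1 and Mcl1 lower (4.13%) and Pmaip1 and Bid higher (7.86%). In Foxp3+ cells limma called 0 of 9 from CD24hi to CD24int (0.286% of all genes), with 1 gene, Bcl2l11, at an unadjusted p below 0.05 and called with the replicate block. It called 0 of 9 from CD24int to CD24lo (0.0165%), with 0 at an unadjusted p below 0.05, and the widest of these differences was 0.57 ± 0.38 for Pmaip1. As a direct test, the Foxp3 difference at CD24int minus that at CD24hi was called for 0 of 9 genes (1.54%), with Bcl2l1 and Bcl2l11 at an unadjusted p below 0.05. The difference at CD24lo minus that at CD24int was called for 2 of 9 genes (4.97%), higher for Bcl2 (1.41%) and lower for Bid (3.57%).

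Lymph node cells were compared with the CD24lo thymic groups, and naive T cells also with Foxp3- CD24int cells. LN Tregs differed from Foxp3+ CD24lo cells in 2 of 9 genes, both higher (5.93% of all genes, 3.15% higher): Bcl2l11 and Bid. LN naive T cells differed from Foxp3- CD24lo cells in 7 of 9 (14.6%), with Bcl2, Mcl1, Bcl2l11 and Bbc3 higher (6.03%) and Pmaip1, Bid and Bak1 lower (8.58%). Against Foxp3- CD24int cells, which carry fewer NK and NKT transcripts (5.55 against 8.73), 2 of 9 were called, both higher (8.56%, 4.38% higher): Bcl2l11 and Bbc3. Bcl2, Mcl1, Pmaip1, Bid and Bak1 were thus called in LN naive T cells against the CD24lo group and not against the CD24int group, and the difference between those comparisons, which share the LN naive T arrays, was not tested. LN samples also carried more B cell transcripts, with 3 of 5 markers called higher in LN Tregs than in Foxp3+ CD24lo cells and in LN naive T cells than in either Foxp3- group, and with means of 6.04 and 5.82 in lymph node against at most 4.93 in thymus. Antigen-presenting cell markers were called higher in LN Tregs than in Foxp3+ CD24lo cells for 4 of 8 genes (6.29, 6.06 to 6.55, against 5.34, 5.09 to 5.50). The part of either in the Bcl2l11 and Bid calls was not tested.

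Outside the 10 genes, counts for each list can be read against all genes, of which 8.38%, 8.66%, 9.85% and 8.01% were called higher and 9.65%, 6.62%, 11.2% and 4.35% lower at CD24hi, CD24int, CD24lo and in lymph node. In precursors against Foxp3- CD24hi cells the shares were 5.08% higher and 4.03% lower, and in Foxp3+ CD24hi cells against precursors 6.77% and 9.27%. Medians of all genes are those given above.

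Of 16 further family genes 11 were measured, and Bcl2a1a, Bcl2a1b, Bcl2a1c, Bcl2a1d and Bnip3l were not. At CD24hi limma called 0 of 11, with 2 higher at an unadjusted p below 0.05, while 3 of 11 were called higher at CD24int, 3 at CD24lo and 2 in LN Tregs, and 0 lower in these 3 (1, 0 and 0 at an unadjusted p below 0.05). In both precursor comparisons limma called 0 of 11, with 1 higher and then 2 higher and 1 lower at an unadjusted p below 0.05. The list medians were 0.19, 0.04, 0.09 and 0.07 in the 4 Foxp3 comparisons. Bcl2l15, a little studied family member, led the list, at 2.11 ± 0.34 at CD24int (adjusted p = 4.75e-05), 3.13 ± 0.34 at CD24lo (adjusted p = 7.88e-08) and 3.29 ± 0.34 in lymph node (adjusted p = 5.41e-08). Its mean log2 intensity was 4.59 in Foxp3+ CD24hi, 6.09 in Foxp3+ CD24int, 6.91 in Foxp3+ CD24lo and 7.31 in LN Tregs, and 3.63 to 4.02 in the other 5 groups, below the median of 4.95 for all probe sets, so the size of these differences depends on a dim signal. Bcl2l13, an abundant mitochondrial member, was not called at CD24hi (0.18 ± 0.11, adjusted p = 0.313), and Bcl2l12 was not called at CD24int (-0.02 ± 0.14, adjusted p = 0.951).

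Inhibitor of apoptosis proteins, which restrain caspases and carry NF-kB signals, were all measured (5 of 5). They were called higher for 2 genes at CD24hi, 2 at CD24int, 3 at CD24lo and 2 in LN Tregs, and lower for 1 at CD24lo. Birc3, the gene of cIAP2, led each time, at 1.27 ± 0.10 at CD24hi (adjusted p = 3.62e-10), 1.17 ± 0.10 at CD24int, 1.74 ± 0.10 at CD24lo (adjusted p = 6.23e-13) and 0.76 ± 0.10 in lymph node. It was also higher in precursors than in Foxp3- CD24hi cells (0.54 ± 0.10, adjusted p = 0.000375), the only 1 of 5 called there, and higher in Foxp3+ CD24hi cells than in precursors (0.73 ± 0.10, adjusted p = 6.09e-06), where 3 of 5 were called higher. Naip2 was lower in Foxp3+ cells at CD24lo (-0.75 ± 0.17, adjusted p = 0.00177), alongside the NK and NKT markers, whose part was not tested. The Naip2 mean over all arrays, 3.97, lies below the median of 4.95 for all probe sets, so this size depends on a dim signal. Birc6 was called in none of the 4 Foxp3 comparisons (-0.15 to 0.16). The list medians in these 4 were 0.36, 0.22, 0.37 and 0.38.

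Death receptor genes, 9 of 10 measured without Ripk1, moved in both directions. They were called higher and lower for 1 and 1 gene at CD24hi, 2 and 2 at CD24int, 2 and 2 at CD24lo and 1 and 1 in lymph node. In Foxp3+ CD24hi cells against precursors 2 were higher and 1 lower, and in precursors against Foxp3- CD24hi cells 1 was lower. Casp8, the caspase that cleaves Bid, was higher in Foxp3+ cells at CD24hi (0.56 ± 0.11, adjusted p = 0.000721) and higher in Foxp3+ CD24hi cells than in precursors (0.76 ± 0.11, adjusted p = 2.49e-05). Tnfrsf1a, a TNF receptor, was lower in Foxp3+ cells at CD24hi (-0.97 ± 0.15, adjusted p = 3.51e-05) and CD24int (-0.67 ± 0.15, adjusted p = 0.00264), and lower in precursors than in Foxp3- CD24hi cells (-0.75 ± 0.15, adjusted p = 0.00134). Fas was higher in Foxp3+ cells at CD24lo (1.11 ± 0.23, adjusted p = 0.00058). Its ligand gene Fasl, which NK cells also express, was lower there (-4.10 ± 0.40, adjusted p = 1.37e-08), in LN Tregs (-1.57 ± 0.40, adjusted p = 0.00739) and in Foxp3+ CD24hi cells against precursors (-1.29 ± 0.40, adjusted p = 0.0259), alongside the NK and NKT markers. The Foxp3+ CD24lo mean of Fasl was 3.39 and that of Foxp3+ CD24hi 3.52, below the median of all probe sets, so these sizes too depend on a dim signal. Traf2 was higher at CD24int (0.34 ± 0.10, adjusted p = 0.0253) and in LN Tregs (0.34 ± 0.10, adjusted p = 0.0328). The list medians in the 4 Foxp3 comparisons were 0.14, 0.22, 0.00676 and -0.0119.

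Caspase and apoptosome genes, 11 of 13 measured, were called higher for 2, 1, 2 and 1 genes at CD24hi, CD24int, CD24lo and in lymph node, and lower for 0 (limma; 0, 0, 2 and 1 at an unadjusted p below 0.05). Apaf1, the apoptosome scaffold, was higher in Foxp3+ cells at CD24hi (0.34 ± 0.11, adjusted p = 0.0259) and in LN Tregs (0.38 ± 0.11, adjusted p = 0.017). Htra2, a mitochondrial protease released with cytochrome c, was higher at CD24int (0.59 ± 0.15, adjusted p = 0.00562) and CD24lo (0.58 ± 0.15, adjusted p = 0.00462). Vdac1, a channel of the mitochondrial outer membrane, was higher in precursors than in Foxp3- CD24hi cells (0.33 ± 0.10, adjusted p = 0.0407) and was one of 3 genes called lower in Foxp3+ CD24hi cells than in precursors (-0.41 ± 0.10, adjusted p = 0.00509). Cycs, the gene of cytochrome c, was called in none of the 6 comparisons (-0.36 to 0.36). The list medians in the 4 Foxp3 comparisons were 0.00235, 0.12, -0.03 and 0.14, and against precursors -0.30.

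Known upstream regulators of the family, 13 of 16 measured without Il2rg, Trp53 and Nfkb1, were called higher for 9, 7, 8 and 8 genes at CD24hi, CD24int, CD24lo and in lymph node and lower for 2, 1, 3 and 1. In precursors 5 were higher and 1 lower than in Foxp3- CD24hi cells, and in Foxp3+ CD24hi cells 7 were higher and 2 lower than in precursors. The list holds Il2ra, by which precursors were sorted and which led each comparison (5.45 to 5.94 between Foxp3+ and Foxp3- cells), so its count is not independent of the gates. Il7r, the receptor of a cytokine that maintains Bcl2, was lower in Foxp3+ cells at CD24hi (-1.46 ± 0.34, adjusted p = 0.00299), CD24int (-1.05 ± 0.34, adjusted p = 0.0374) and CD24lo (-1.68 ± 0.34, adjusted p = 0.000579), and lower in precursors than in Foxp3- CD24hi cells (-1.33 ± 0.34, adjusted p = 0.0122). The LN difference of Il7r was -0.52 ± 0.34 (adjusted p = 0.433). Fbxw7, part of a ubiquitin ligase for Mcl1, was lower in Foxp3+ CD24hi cells than in precursors (-0.54 ± 0.14, adjusted p = 0.00768), and Myc was lower in LN Tregs than in LN naive T cells (-0.46 ± 0.12, adjusted p = 0.0121). Nr4a1 was not called at CD24hi (0.08 ± 0.15) or CD24int (0.33 ± 0.15, adjusted p = 0.186), and Foxo3 at CD24lo missed the threshold (0.27 ± 0.10, adjusted p = 0.0528). The list medians were 0.41, 0.39, 0.86 and 0.35 in the 4 Foxp3 comparisons.

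The pattern of each gene over the 9 group means can be set beside those of the 3143 other genes that span at least 1 log2 unit, as a description of 9 points that share arrays. Pmaip1 was most like Rgs1 (r = 0.984), Icam1 (0.984), Reep3 (0.975) and Lrrc8d (0.968). Bcl2l1 was most like Trib1 (0.965), Tnfrsf9 (0.961), Ctif (0.960) and Tceal8 (0.959), and Bcl2 like Mturn (0.978), Nsmce1 (0.947), Sec22c (0.93) and Spaca1 (0.923). Bid was most like Ikbip (0.970), Unc119 (0.953), Grhl1 (0.943) and Dstn (0.942), and Bcl2l11 like Plin2 (0.928), Nrip1 (0.921), Mns1 (0.883) and Ralb (0.845). Within the family the group means of Bcl2 and Mcl1 correlated at 0.804, those of Pmaip1 and Bid at 0.719 and those of Bcl2l1 and Bcl2l11 at 0.674. Mcl1 and Bak1 (-0.721) and Bbc3 and Bak1 (-0.855) ran against each other, and Pmaip1 and Bcl2l11, both BH3-only genes, at -0.0123 showed no shared order.

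**Figure D5:**
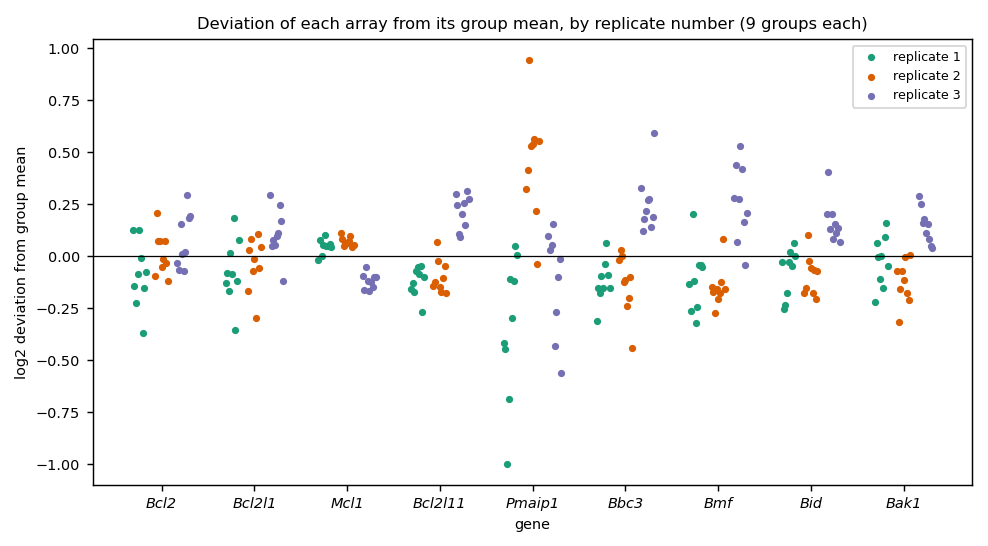
Deviation of each array from its group mean (vertical axis, log2 units) for the 9 genes (horizontal axis), with the replicate numbers in different colours. Each point is 1 of the 9 groups. Replicate 3 is above the group mean in 9 of 9 groups for Bcl2l11, Bbc3, Bid and Bak1 and below it in 9 of 9 for Mcl1, and replicate 2 is above it in 8 of 9 for Pmaip1.

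The arrays of one replicate number shared part of their deviation across groups. Replicate 3 lay above the group mean in 9 of 9 groups for Bcl2l11 (by 0.216 log2 units on average), Bbc3 (0.257), Bid (0.167) and Bak1 (0.147), and in 8 of 9 for Bmf and Bcl2l1. It lay below the mean in 9 of 9 groups for Mcl1 (-0.119). These shifts are of the size of the SE of a difference, and the calls that the replicate block adds are given beside the genes above.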

How the data were processed

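Labelled RNA from 27 sorted samples was hybridised to Affymetrix 3' arrays from 50 ng of total RNA, per the labels' protocols. The deposited table gives 1 linear intensity per probe set and array (3.55 to 24083, array medians 30.3 to 32), made by the authors with RMA, per the submitters' processing notes; its version and settings, and any detection calls, are not given in the sources used here. Arrays give no counts, and 3 per group limit the precision (median SE 0.145 log2 units for a difference). Of 45101 probe sets, 34958 have 1 symbol in the platform annotation, 932 several and 9211 none. Values were taken to log2 and the probe set with the highest mean represented each of 18194 genes. A linear model of 9 group means was fitted to all arrays with limma 3.58.1 (R 4.3.3), with eBayes and Benjamini-Hochberg adjustment per comparison over all genes, and was tested on simulated data. Alternatives were the replicate block, log2(intensity + 16), quantile normalization, no dim genes (11571 genes remained), the mean of all probe sets, every probe set alone, the compared groups alone, and each array left out in turn. Replicate numbers come from the leading digit of the samples' codes. Every same-numbered pair had an r above 0.1 (lowest 0.102 to 0.389) in most comparisons between groups. The exceptions were Foxp3+ against Foxp3- at CD24int and CD24lo and LN naive T against thymic cells. The remaining comparisons are called paired, and the block is given beside results in the paired ones only. The 10 genes, the lists and the tests were chosen with earlier results of these data known. Named besides the 10 genes were, from each list, the called gene with the smallest p in each direction and the uncalled gene with the highest mean, and the 4 genes most alike in pattern. Promoters are from RefSeq (GRCm38.p6); that of Pmaip1 and protein sequences were not used here.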

Additional observations from a re-analysis of the deposited data

Results flagged for a closer look

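The difference between Foxp3+ and Foxp3- cells changed from CD24int to CD24lo for 2 of the 9 genes by a direct test in limma (n = 3 arrays per group). For Bcl2 it grew by 0.81 ± 0.20 log2 units (adjusted p = 0.0155), from 0.35 to 1.16. For Bid it changed by -0.99 ± 0.21 (adjusted p = 0.00455), from 0.84 to -0.15. In both, the Foxp3- CD24lo arrays moved, and 8 of 8 NK and NKT markers were called higher there than in Foxp3- CD24int cells; their part was not tested. For Bid 1 of 3 probe sets gave the call, and for Bcl2 2 of 5.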

How the results depend on the processing

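Of 1863 results for single genes under the alternatives, 1760 kept direction and side of the threshold, 70 lost a call, 31 gained one and 2 reversed. Both reversals were Bmf with the mean of all probe sets: 0.64 in precursors against Foxp3- CD24hi (adjusted p = 0.00882) and -0.79 in Foxp3+ CD24hi against precursors (adjusted p = 0.001), against -0.27 and 0.45 for the representative; the probe sets themselves disagree. Counts of called family genes moved as follows. With the compared groups alone 2 in place of 5 were called at CD24hi, 4 in place of 7 for Foxp3+ CD24hi against precursors, 1 in place of 2 for Foxp3- CD24int against CD24hi, 3 in place of 5 for Foxp3- CD24lo against CD24int and 1 in place of 2 for the change of the Foxp3 difference from CD24int to CD24lo; that fit has fewer arrays. The replicate block gave 1 in place of 0 for Foxp3+ CD24int against CD24hi and for the change from CD24hi to CD24int, and 4 in place of 2 for Foxp3- CD24int against CD24hi and for LN naive T against Foxp3- CD24int; the mean of all probe sets gave 1 in place of 2 for Foxp3- CD24int against CD24hi. In paired comparisons the block changed no call of the 9 genes beyond those given beside them. Where not every same-numbered pair had an r above 0.1, the block added Bcl2l11 at CD24int (adjusted p = 0.000576). It added Bcl2l1 (0.0328) and Bid (0.0134) for LN naive T against Foxp3- CD24int. It also added Bcl2l11 for the change from CD24hi to CD24int (0.00663) and Mcl1 for that from CD24int to CD24lo (0.0013). In such comparisons the median r was 0.159 to 0.344 for same-numbered arrays and -0.157 to -0.0639 for differently numbered ones. Missing the 0.1 rule therefore does not show that these arrays are unpaired. With 1 array left out the counts ranged from 2 to 4 at CD24hi, 4 to 8 for Foxp3+ CD24hi against precursors, 1 to 2 for Foxp3- CD24int against CD24hi, 1 to 3 for the change from CD24int to CD24lo and 0 to 3 for LN naive T against Foxp3- CD24int, with 0 without LN naive T replicate 3.

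Over all genes, the block raised the called genes from 1658 to 2671 for precursors against Foxp3- CD24hi, 2917 to 4443 for Foxp3+ CD24hi against precursors, 52 to 210 and 3 to 23 for the Foxp3+ steps, 911 to 1822 and 2182 to 3407 for the Foxp3- steps, 281 to 1041 and 905 to 1533 for the changes of the Foxp3 difference, 1078 to 1922 for LN Tregs against Foxp3+ CD24lo and 1558 to 2640 for LN naive T against Foxp3- CD24int. With the compared groups alone 1001, 1804, 0, 0, 552 and 166 were called where the full fit called 1658, 2917, 52, 3, 911 and 281. For Foxp3+ CD24lo against CD24int, 9 were called without dim genes, 10 with the mean of all probe sets and 16 with log2(intensity + 16). With 1 array left out, 14 to 73 were called for Foxp3+ CD24int against CD24hi, 1 to 7 for CD24lo against CD24int and 185 to 313 for the change from CD24hi to CD24int. The causes were not tested. Quantile normalization moved no median of all genes by more than 0.00954, and log2(intensity + 16) none by more than 0.0225. Low Pmaip1, Bmf, Bcl2l15, Fasl and Naip2 signals cannot be told from background without detection calls.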
